A study of Homo sapiens with 8 samples.

Results

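The RNAs of 10 genes that encode stress granule proteins were examined for sites bound by TIA1 and by RBFOX2 in HEK293T cells, a line derived from human embryonic kidney. The genes were G3BP1, G3BP2, CAPRIN1, USP10, UBAP2L, PABPC1, ATXN2, FMR1, FXR1 and CIRBP. Each gene was defined by a span in the hg19 build given to the nearest kb, and a peak was assigned to the gene when it overlapped the span by at least 1 base on the gene's strand. Of 7442 deposited peaks, 24 met this rule: 17 of 3215 in the TIA1 list and 7 of 4227 in the RBFOX2 list. The spans together covered 547 kb and held 0 peaks of either list on the opposite strand.

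The assay was eCLIP: ultraviolet light fixes proteins to the RNA they touch, a protein is immunoprecipitated, and the RNA that comes with it is sequenced. The groups were TIA1 clip and TIA1 input, and RBFOX2 clip and RBFOX2 input, with 2 libraries each. All cells were crosslinked with 600 mJ, and clip libraries were precipitated with an antibody against the HA tag, while input libraries had no precipitation. The labels do not say how the tagged proteins were expressed, name the line both HEK293 and HEK293T, and do not settle whether replicates were biological or technical. The authors deposited 1 list of peaks per protein that joins both replicates. Each peak carries the authors' own log2 fold, read here as clip over input, and −log10 p, for which no spread between libraries can be given. No treatment that induces stress granules is named in the labels.

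Stress granules are assemblies of untranslated mRNAs and proteins that form in the cytoplasm when translation initiation is blocked. G3BP1 and G3BP2 are paralogous scaffolds that nucleate them, CAPRIN1 and USP10 bind the same surface of G3BP with opposite effects on assembly, and TIA1 is itself a component. TIA1 prefers U-rich RNA and regulates splicing and translation, and RBFOX2 is a splicing regulator that recognises GCAUG. The lists show where the RNAs of granule proteins carried sites of TIA1, a granule protein, and of RBFOX2, a splicing factor.

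TIA1 peaks were found in 6 of the 10 genes and RBFOX2 peaks in 4. CAPRIN1, PABPC1 and FMR1 had TIA1 peaks and no RBFOX2 peak, and G3BP1 had RBFOX2 peaks and no TIA1 peak. G3BP2, UBAP2L and ATXN2 had peaks of both lists. USP10, FXR1 and CIRBP had none. Thus, of the 7 genes with any peak, 6 had TIA1 peaks, 4 had RBFOX2 peaks and 3 had both. For scale, of the 3061 strand-specific windows of 50 kb with a peak of either list, 58.8% held a TIA1 peak, 64.4% an RBFOX2 peak and 23.2% both. The spans are genes of 16 to 148 kb and not such windows, and 7 genes are too few to call the members different from the rest.

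**Figure D1:**
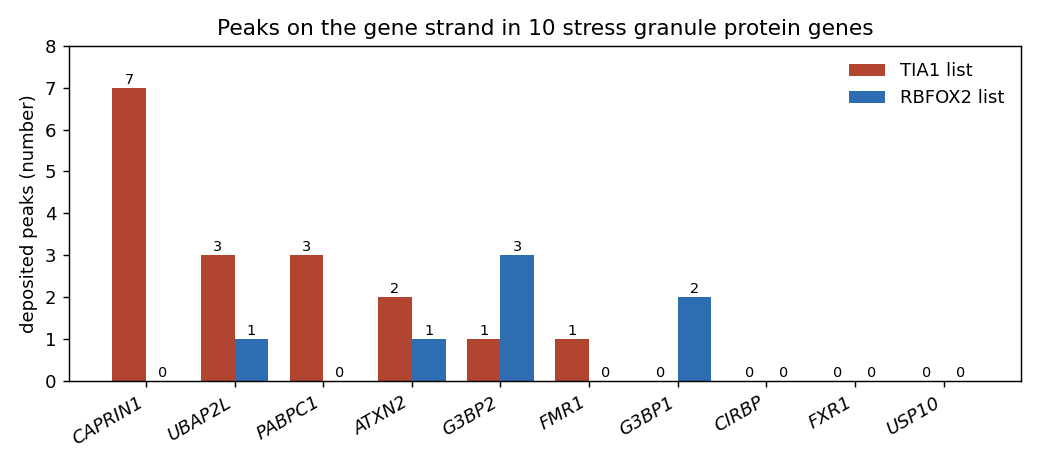
Number of deposited peaks on the gene strand (vertical axis) in each gene (horizontal axis), with TIA1 bars left of RBFOX2 bars. CAPRIN1 held 7 of the 17 TIA1 peaks, G3BP2 held 3 of the 7 RBFOX2 peaks, and CIRBP, FXR1 and USP10 held 0 in both lists.

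GCATG, the RBFOX element written as DNA, is shown first where RBFOX2 folds were highest, in G3BP2, and beside it the match in the coding sequence of its paralog G3BP1. The sequences are from the longest protein-coding GENCODE transcript of each gene (release 29, GRCh38), read 5′ to 3′ on the sense strand, and capitals mark GCATG. These sites were chosen after the folds were seen. The G3BP2 transcript, from the minus strand of chromosome 4, has 4883 bases and 4 matches. The match at position 2162 lies in its coding sequence and those at 3120, 3898 and 4014 in its 3′ UTR. The G3BP1 transcript, from the plus strand of chromosome 5, has 10240 bases and 6 matches, of which 1, at position 1491, is coding and 5 lie in the 3′ UTR. These positions were not carried over to hg19, so none can be said to lie under a peak.
G3BP1 at 1491: ccccgtggagGCATGgtgcagaaac
G3BP2 at 2162: ccaaggggtgGCATGgcacagaaac
G3BP2 at 3120: aatgtaataaGCATGatggtgcctt
G3BP2 at 3898: ctgctcgttaGCATGgaagacttct
G3BP2 at 4014: agcaaatgatGCATGtattttgttt

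The scaffolds were described first. G3BP2 had the highest fold of all member peaks in both lists. Its single TIA1 peak, at chr4:76598482-76598596 on the minus strand, had a log2 fold of 3.94 (15.3-fold) and a −log10 p of 8.96. It was the TIA1 member with the highest fold rank, 359 of 3215. An RBFOX2 peak lay on the same RNA at chr4:76598475-76598579, with a log2 fold of 3.74 and a −log10 p of 11.6. The peaks shared 98 bases, which was 85.2% of the TIA1 peak and 93.3% of the RBFOX2 peak, and both lay within 0.525 kb of the 5′ end of the span. This was the one place in the 10 genes where the lists overlapped, so 1 of 17 TIA1 and 1 of 7 RBFOX2 member peaks overlapped the other list. Over the whole lists, 24.0% of TIA1 and 21.7% of RBFOX2 peaks did.

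The other RBFOX2 peaks of G3BP2 abutted each other at the opposite end of the span, 1.73 kb from its 3′ end. The peak at chr4:76568732-76568800 had a log2 fold of 4.52 (23.0-fold) with a −log10 p of 4.65, and ranked 244 of 4227 by fold. Its neighbour at chr4:76568801-76568829 had a log2 fold of 4.02 and a −log10 p of 4.03. A log2 fold of 4 or more was thus found for 2 of 7 RBFOX2 member peaks, a level reached by 19.3% of the whole list. Their −log10 p were low for that list, whose median was 6.77. The nearest TIA1 peak lay 29652 bases away.

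G3BP1 differed from its paralog in these lists. It had no TIA1 peak, and the closest one on its strand was 1414 kb away. Its RBFOX2 peaks abutted at chr5:151184705-151184819 and chr5:151184820-151184901, on the plus strand and 8.10 kb from the 3′ end of a 42 kb span. Their log2 folds were 3.22 and 3.25, below the RBFOX2 median of 3.48, and their −log10 p were 3.79 and 4.20. Both genes thus had an abutting pair of RBFOX2 peaks in the 3′ part of the span, and the G3BP2 pair had the higher folds. Neighbouring peaks were common in this list. Another peak lay within 1 kb for 66.5% of all RBFOX2 peaks, and for 4 of the 7 member peaks.

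Among the direct partners of G3BP, CAPRIN1, an RNA-binding protein that promotes granule assembly, had most peaks. Its 7 TIA1 peaks, on the plus strand of chromosome 11, lay within 744 bases, from 34073277 to 34074020, and covered 247 of them. They formed 2 groups 464 bases apart, with 3 peaks between 34073277 and 34073418 and 4 between 34073883 and 34074020. Log2 folds were close to one another, from 3.14 to 3.51, while −log10 p ran from 7.39 to 23.6. The peak of highest fold was 4 bases wide, at chr11:34073415-34073418. The peak of highest −log10 p among all members was chr11:34073972-34074020, with a log2 fold of 3.17. All 7 began in the first 1 kb of a 50 kb span. As a yardstick, 2.06% of the 1800 strand-specific 50 kb windows with a TIA1 peak held 7 or more, and the median window held 1. The cut of 7 was the count of CAPRIN1 itself, the highest among the members, and it counts peaks and not groups. The share therefore cannot show that CAPRIN1 is unusual.

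The CAPRIN1 span held 0 RBFOX2 peaks, and the nearest on the strand was 697 kb upstream. USP10, a deubiquitinase that binds G3BP and opposes assembly, had 0 peaks in both lists. The nearest TIA1 peak on its strand was 876 kb away and the nearest RBFOX2 peak 50.7 kb upstream.

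UBAP2L, an RNA-binding protein that acts with G3BP in assembly, had sites of both proteins far apart. Its 3 TIA1 peaks abutted one another across chr1:154229642-154229734 on the plus strand. Log2 folds in order were 3.22, 3.55 and 3.26, and −log10 p were 10.0, 10.5 and 7.84. The site lay 37.6 kb into the 52 kb span, so it was the TIA1 site farthest from a 5′ end. Its single RBFOX2 peak, at chr1:154243024-154243046, lay 13289 bases downstream and 0.954 kb from the 3′ end of the span. With a log2 fold of 3.01 and a −log10 p of 4.60 it stood next to the lower limit of the list, at rank 4181 of 4227 by fold.

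PABPC1, the cytoplasmic poly(A)-binding protein, had 3 TIA1 peaks and 0 RBFOX2 peaks. The peaks were separate, at chr8:101718949-101718962, chr8:101719029-101719033 and chr8:101719115-101719178 on the minus strand, 3.95 to 4.11 kb from the 3′ end of a 20 kb span. Their log2 folds were 3.06, 3.16 and 3.05, all below the TIA1 median of 3.36, and their −log10 p were 8.77, 15.7 and 19.0, all above the TIA1 median of 7.36. PABPC1 has close paralogs and pseudogenes, and the sources used here do not say how reads with several matches were treated, so its peaks carry that uncertainty.

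ATXN2, a partner of PABPC1 whose polyglutamine repeat is expanded in a spinocerebellar ataxia, had neighbouring sites of both proteins near the 5′ end of its span. The TIA1 peaks abutted at chr12:112036873-112036913 and chr12:112036914-112037092 on the minus strand. The 41-base peak had a log2 fold of 3.21 and a −log10 p of 3.30, and the 179-base peak, the widest of the members, had 3.47 and 18.3. The RBFOX2 peak at chr12:112036713-112036783 had a log2 fold of 3.17 and a −log10 p of 3.85. It did not overlap the TIA1 site and lay 89 bases from it, towards the 3′ end. The 2 sites together fell between 0.91 and 1.29 kb from the 5′ end of a 148 kb span.

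FMR1 encodes FMRP, an RNA-binding repressor of translation that is lost in fragile X syndrome, and FXR1 encodes its paralog. FMR1 had 1 TIA1 peak, at chrX:146993488-146993582 on the plus strand, 0.49 kb from the 5′ end of the span. Its log2 fold was 3.07 (8.37-fold), rank 2862 of 3215, and its −log10 p was 8.88. FXR1 had 0 peaks, and no peak of either list lay within 1 Mb of its span on the strand. CIRBP, a cold-inducible RNA-binding protein that can move to granules, also had 0 peaks. The nearest RBFOX2 peak on its strand was 8.66 kb upstream and the nearest TIA1 peak 26.3 kb downstream. A gene without a peak cannot be read as unbound, because peaks under the authors' limits are not seen and the level of each RNA in the libraries is unknown.

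By position, 11 of the 17 TIA1 peaks began in the first 2 kb of their spans, in 4 genes: CAPRIN1, ATXN2, G3BP2 and FMR1. Without CAPRIN1 this was 4 of 10. With peaks within 50 bases joined into sites, CAPRIN1 had 2 such sites, and ATXN2, G3BP2 and FMR1 had 1 each. Away from the 5′ end, PABPC1 had 3 TIA1 sites and UBAP2L 1. The share over all TIA1 peaks was not computed, so the count does not set the members apart from the list. Spans are given to the nearest kb, and the 5′ end of a span need not be that of the gene. Of the RBFOX2 peaks 2 of 7 did so, and the other 5, in G3BP1, G3BP2 and UBAP2L, were nearer the 3′ end. TIA1 folds were alike in both places, with a median log2 fold of 3.21 in the first 2 kb and 3.19 for the 6 peaks elsewhere, in UBAP2L and PABPC1. No hg19 annotation was used, so whether these peaks lie in exons, introns or untranslated regions was not analysed here.

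**Figure D2:**
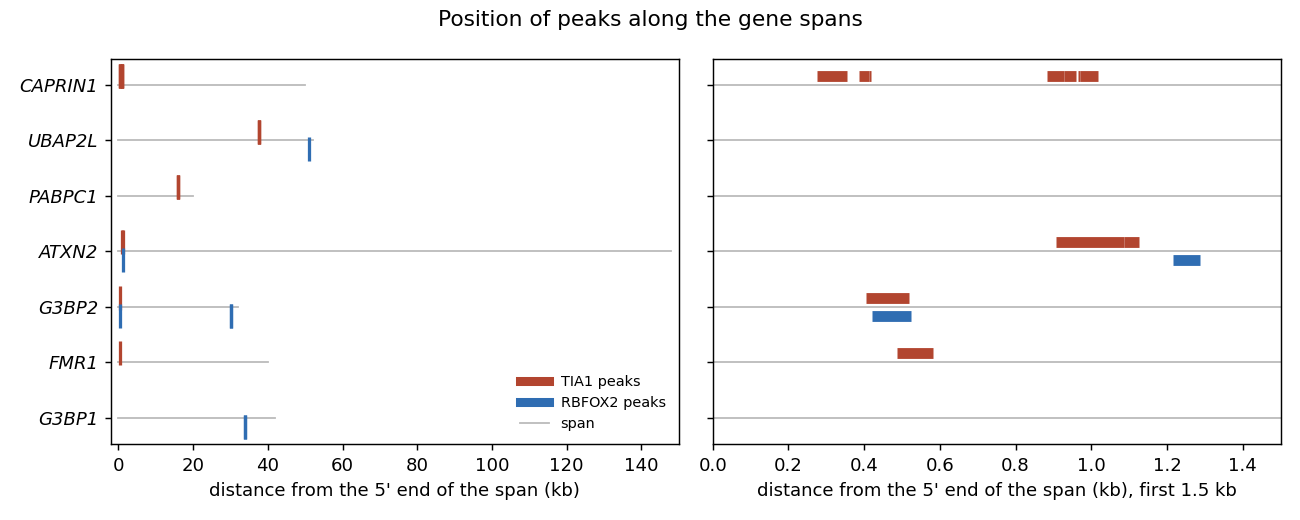
Peaks of TIA1 (drawn above each line) and RBFOX2 (below) against distance from the 5′ end of the span in kb, for the 7 genes with a peak; the right panel enlarges the first 1.5 kb. TIA1 peaks of CAPRIN1, ATXN2, G3BP2 and FMR1 lie in the first 1.5 kb of the span, whose 5′ end need not be that of the gene. The lists overlap in G3BP2, and in ATXN2 they are 89 bases apart.

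Within each list, member peaks were set against all peaks. TIA1 member peaks had a median log2 fold of 3.21, with a range of 3.05 to 3.94, and 5 of 17 lay above the list's median of 3.36. None reached a log2 fold of 4 (0 of 17), a level reached by 9.21% of TIA1 peaks. Their −log10 p stood the other way, with a median of 10.5 against 7.36 for the list. A −log10 p of at least 5 was reached by 16 of 17, the exception being the 41-base ATXN2 peak, against 71.4% of the list. Without CAPRIN1, whose 7 peaks lie in 2 groups, the medians of the remaining 10 TIA1 peaks were 3.22 for log2 fold and 9.49 for −log10 p, and 9 of 10 reached 5. With peaks within 50 bases joined, the 9 TIA1 member sites had a median log2 fold of 3.47, as a site takes its highest fold. The list's median after joining was not computed, so the lower member fold was seen for unjoined peaks only.

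RBFOX2 member peaks showed the reverse pattern in −log10 p. Their median was 4.20 against 6.77 for the list, and 1 of 7, the G3BP2 peak that overlaps TIA1, reached 5, against 68.4% of the list. Their median log2 fold was 3.25, with a range of 3.01 to 4.52, against 3.48 for the list, and the 3 peaks above that median were those of G3BP2. Since −log10 p grows with the number of reads, and read counts are unknown, it is not a measure of binding strength. Peaks that abut share a site and are not independent, so these are descriptions of 24 peaks at 14 joined sites, with no test.

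**Figure D3:**
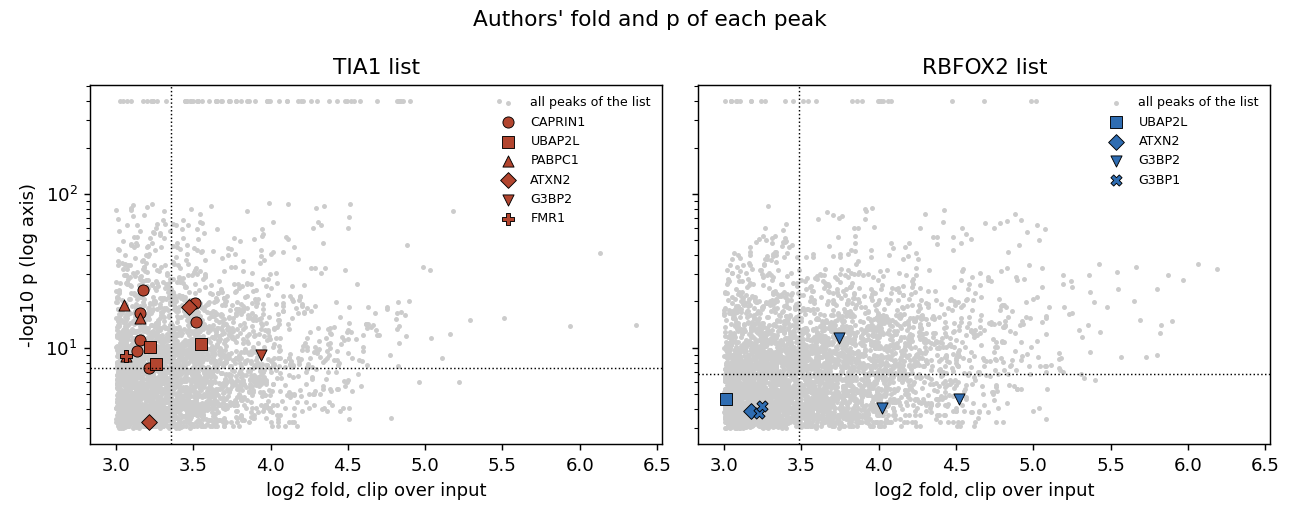
Log2 fold of clip over input (horizontal axis) against −log10 p (vertical log axis) for all peaks of each list in grey and for member peaks as coloured symbols; dotted lines are the list's medians. Of the TIA1 member peaks 16 of 17 lie above the median −log10 p and 5 of 17 above the median fold, whereas of RBFOX2 member peaks 1 of 7 and 3 of 7 do.

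Sequence was then compared between genes with and without peaks, by counting motifs in the longest protein-coding GENCODE transcript of each gene on the sense strand. GCATG occurred at 0.59, 0.82, 1.25 and 1.06 matches per kb in G3BP1, G3BP2, UBAP2L and ATXN2, the genes with RBFOX2 peaks. In the 6 genes without RBFOX2 peaks it ranged from 0 per kb in USP10 to 0.69 per kb in FMR1. The ranges overlapped, as G3BP1 was below FMR1, and the median over 19669 protein-coding genes was 0.84 per kb. At least 1 match was present in 85.6% of all these transcripts, and in 9 of the 10 members. In UBAP2L and ATXN2 all 5 matches of each lay in the coding sequence.

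TTTTT, a run of U in RNA, was counted in the same way for TIA1, and here too the ranges of genes with and without peaks overlapped. Among the 6 genes with TIA1 peaks it ran from 0.25 matches per kb in UBAP2L and 1.06 in ATXN2 to 6.96 in G3BP2 and 10.6 in FMR1. CAPRIN1, with most TIA1 peaks, had 2.68 per kb, near the median of 2.31 over all genes. PABPC1 had 1.43 per kb and was below that median, as were UBAP2L and ATXN2. At least 1 match was present in 83.1% of all these transcripts, and in all 10 members. Of the 4 genes without TIA1 peaks, G3BP1 had 9.18, FXR1 9.76 and CIRBP 12.5 per kb, and USP10 had 1.99. In G3BP1, G3BP2, FMR1, FXR1 and CIRBP nearly all matches were in the 3′ UTR, for instance 44 of 46 in FMR1. The TIA1 peak of FMR1 lay 0.49 kb from the 5′ end of its hg19 span and was not placed on the transcript. Runs that overlap were each counted. Spliced transcripts leave out introns, and the counts describe whole transcripts and not the bound sites.

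**Figure D4:**
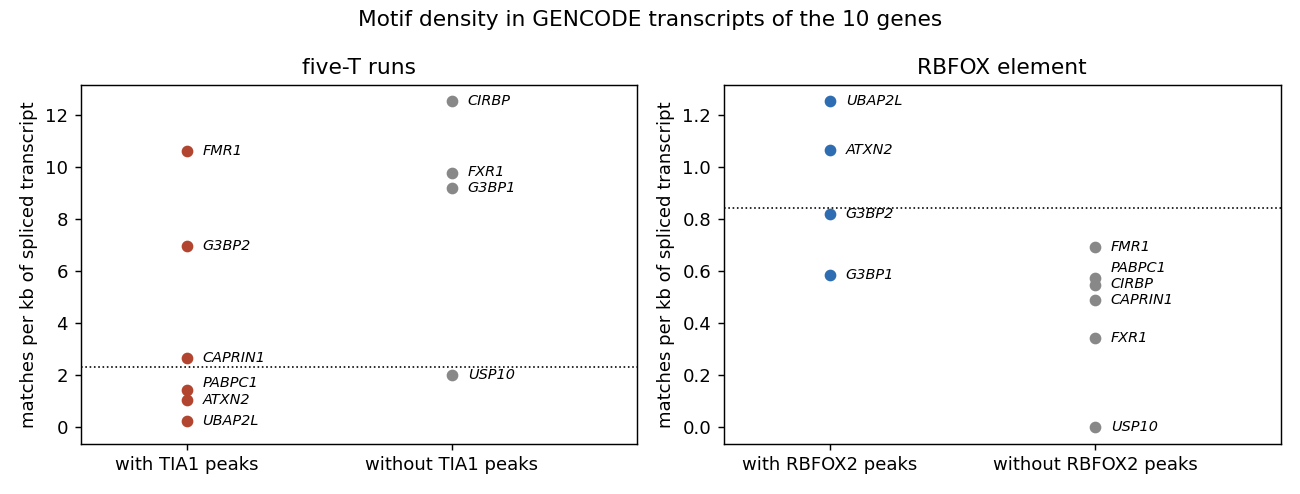
Matches per kb of spliced transcript for TTTTT (left) and GCATG (right), with 1 point per gene, for genes with peaks of TIA1 or RBFOX2 and genes without; dotted lines are medians over all protein-coding genes. GCATG was densest in UBAP2L and ATXN2, which have RBFOX2 peaks. G3BP1 and G3BP2, which also have RBFOX2 peaks, had 0.59 and 0.82 per kb, below the median of 0.84. TTTTT was densest in CIRBP, which has no TIA1 peak.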

How the data were processed

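Per the labels, 8 eCLIP libraries were made from HEK293T cells. The hg19 build, STAR 2.4.0i, SAMtools 1.6, UMI-tools 1.0.0 and cutadapt 1.14 are named, with no role, in the submitters' processing notes. Which program called the peaks is not given in the sources used. The deposited lists have no header. One deposited column was taken as −log10 p from its range (3.01 to 400), and another deposited column as log2 fold (3.00 and above). Lists join both replicates and hold no counts, so depth is unknown and nothing was tested.

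Peaks were selected by span and strand with Python 3.11.15, pandas 2.3.3 and numpy 2.4.6, with starts made 1-based; selection was tested on simulated data. Peaks of a list within 50 bases were also joined into sites. The members and lists were chosen with earlier results of these data known. All 10 genes are named, with their peaks of highest fold and −log10 p. GENCODE 29 (GRCh38) served only for transcript sequence, chromosome, strand and gene length. Chromosome and strand matched the rule for 10 of 10 genes. Its gene models are longer than the spans for FXR1 (115 against 66 kb), G3BP2 (81.7 against 32 kb), PABPC1 (37.0 against 20 kb) and ATXN2 (156 against 148 kb). Upstream of these spans the nearest peak was 196 kb away or more. On which side the models extend was not determined in hg19. Downstream, the spans were widened by 5 kb only, and peaks farther out were not counted. Other stress granule genes were not analysed here.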

Additional observations from a re-analysis of the deposited data

How the results depend on the processing

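Widening the spans by 5 kb on each side added 0 peaks and left the counts of peaks, genes and overlapping peaks and the log2 fold medians over all member peaks as they were; positions within the spans were not recomputed. A log2 fold of at least 4 left 0 TIA1 peaks in 0 genes and 2 RBFOX2 peaks in 1 gene (median 4.27), with 0 genes in both lists and 0 overlapping peaks in either; it leaves no TIA1 median. A −log10 p of at least 5 left 1 RBFOX2 peak (log2 fold 3.74) in 1 gene and 1 gene with both. Joining peaks within 50 bases left 9 TIA1 sites with a median log2 fold of 3.47, since a site takes its highest fold. The median of the whole TIA1 list after joining was not computed. Counting member peaks within 100 bases of the other list gave 2 of 17 TIA1 and 2 of 7 RBFOX2 peaks, by adding ATXN2. The share over the whole lists was computed for overlap by 1 base only. These counts therefore have no share to be set against. The remaining 23 of 39 recomputed values moved by at most 1.5 times, or by under 0.1 for log2 medians. No paired analysis was possible because the replicates are merged in each list, so none could be left out either.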
